A study of Mus musculus with 56 samples.

Results

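The genes described here are 10 chosen genes of the mouse MHC class I system: the heavy chains H2-K1, H2-D1, H2-Q4, H2-Q6, H2-Q7, H2-T22, H2-T23 and H2-M3, their shared light chain B2m, and Nlrc5, the coactivator of class I genes. They were chosen by gene name, and each name was found once among the 52636 genes of the heart table and once among the 57010 genes of the table of bone, muscle and skin. All 10 passed the filter on low counts in every fit. Monocytes and macrophages were sorted from injured tissue and sequenced in bulk, in 56 libraries of 16 groups. The injuries were a myocardial infarction in the heart, a defect in the skull bone, a volumetric muscle loss or a punch wound of the skin, with 1 injury in each mouse. Every mouse was 10 weeks old and received diphtheria toxin (20 ng per g, intraperitoneally), so the toxin is common to both arms. The depleted arm came from Foxp3(DTR/GFP) mice, whose Foxp3 locus drives the toxin receptor, so that the toxin kills regulatory T cells (Tregs). The control arm came from wild-type C57BL/6J mice given the same toxin, so genotype and depletion cannot be told apart. Each arm had 3 libraries per day in heart and muscle (days 4 and 7 after injury), 4 per day in skin (days 4 and 7), and in bone 5 at day 7 and 3 at day 10. The series text speaks of days 4 and 7 for all tissues, and the bone days given here are those of the sample labels. The heart libraries whose names give no day were read as day 7, since the others name day 4 and the labels give heart no further day.

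MHC class I molecules show peptides from inside the cell to CD8 T cells and to receptors of NK cells. Proteasome products are carried into the endoplasmic reticulum by the TAP transporter, trimmed, and loaded onto a heavy chain paired with beta-2 microglobulin (B2m). H2-K1 and H2-D1 encode the classical, highly polymorphic heavy chains, and the H2-Q, H2-T and H2-M genes encode non-classical ones with narrower roles. Interferon-gamma raises Nlrc5, and Nlrc5 is recruited to class I promoters at the SXY module, a set of boxes bound by the RFX complex, CREB/ATF factors and NF-Y. Macrophages carry class I on their surface at rest and raise it when they meet interferon.

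The promoters of the class I genes show the sites through which that control is known to run, and they are printed to show how alike the heavy chains and B2m are. Sequences are from RefSeq (GRCm38.p6), which had an entry for 9 of the 10 genes, from 250 bases before to 50 bases after the start. No entry was matched for Nlrc5. Each line is a stretch of 120 bases upstream of the start, 5′ to 3′ on the gene's strand. H2-K1 lies at chr17:34000349-34000468 (minus strand), H2-Q4 at chr17:35379433-35379552 (plus), H2-Q7 at chr17:35439010-35439129 (plus), H2-T22 at chr17:36042791-36042910 (minus) and B2m at chr2:122147529-122147648 (plus). Capitals mark matches, on either strand, to GATTCCC (the enhancer A core), TTTCNNTT (part of an interferon-stimulated response element), TGNTGAC (the X2 box) and ATTGG (the Y box).
H2-K1: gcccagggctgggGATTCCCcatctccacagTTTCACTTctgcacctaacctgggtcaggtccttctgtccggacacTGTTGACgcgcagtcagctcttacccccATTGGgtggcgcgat
H2-Q4: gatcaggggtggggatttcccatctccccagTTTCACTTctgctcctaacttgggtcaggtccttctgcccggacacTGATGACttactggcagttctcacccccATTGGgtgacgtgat
H2-Q7: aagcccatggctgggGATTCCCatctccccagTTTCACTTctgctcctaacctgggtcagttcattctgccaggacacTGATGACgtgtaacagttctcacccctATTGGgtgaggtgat
B2m: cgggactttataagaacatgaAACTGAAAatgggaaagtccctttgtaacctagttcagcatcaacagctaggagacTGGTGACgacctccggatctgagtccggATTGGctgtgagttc
H2-T22: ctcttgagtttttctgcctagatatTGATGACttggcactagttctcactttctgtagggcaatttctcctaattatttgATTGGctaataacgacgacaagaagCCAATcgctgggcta
A TGNTGAC followed on the same strand by ATTGG with 15 to 25 bases between them was found in 7 of the 9 promoters (H2-K1, H2-D1, H2-Q4, H2-Q6, H2-Q7, H2-M3 and B2m), at a spacing of 20 or 21 bases. Among all 32544 promoters of the same length, 68 held this pair (0.209%). In H2-T22 and H2-T23 both boxes occurred in that order on the same strand (in H2-T23 the strand opposite to the gene), but farther apart. GATTCCC was in 5 of the 9 promoters, against 3.35% of all promoters. TTTCNNTT was in all 9, against 23.9% of all promoters, TGNTGAC alone is in 14.1% and ATTGG alone in 37.4%. The letters were chosen after the sequences were seen, and a match describes the sequence only.

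Several of these genes are near copies of each other, which bears on every value below. The 8 heavy chain genes lie on chromosome 17 (GRCm38), from H2-K1 at 33996017 to 34000347 past H2-D1 at 35262730 to 35267499, H2-Q4 at 35379617 to 35385290, H2-Q6 at 35424850 to 35430055, H2-Q7 at 35439155 to 35443773, H2-T23 at 36029773 to 36032855 and H2-T22 at 36037128 to 36042747 to H2-M3 at 37270220 to 37274484. B2m lies on chromosome 2 (122147686 to 122153083) and Nlrc5 on chromosome 8 (94434356 to 94527272). In GENCODE transcripts, 51% of the 31-base words of H2-T22 and 50.3% of those of H2-Q6 also occur in another gene, against 39.1% for H2-Q7, 38.4% for H2-Q4, 26.7% for H2-D1, 24.5% for H2-T23 and 22.8% for H2-K1. H2-M3 shares 4.62%, and B2m and Nlrc5 share none. In the last 500 bases of coding transcripts, which 3′ libraries read most, the share is 72.7% for H2-T22, all of it with H2-T10, and 66% for H2-T23, 59.6% for H2-Q6, 53.8% for H2-Q4, 27.2% for H2-D1, 24.4% for H2-K1 and 21% for H2-Q7. Values of single H2-Q and H2-T genes, and of H2-K1 and H2-D1, are therefore uncertain, since reads may be divided or dropped among copies. Sums over the H2-Q genes and over the H2-T genes are given beside them, and H2-K1 and H2-D1 entered no sum. H2-T22 and H2-T23 overlap an antisense gene, A930015D03Rik, H2-Q4 overlaps the antisense gene Gm11131, B2m overlaps Patl2 on the other strand, and Nlrc5 overlaps 9330175E14Rik and Mir7072. Whether the counting used strand is not given in the sources used here.

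**Figure D1:**
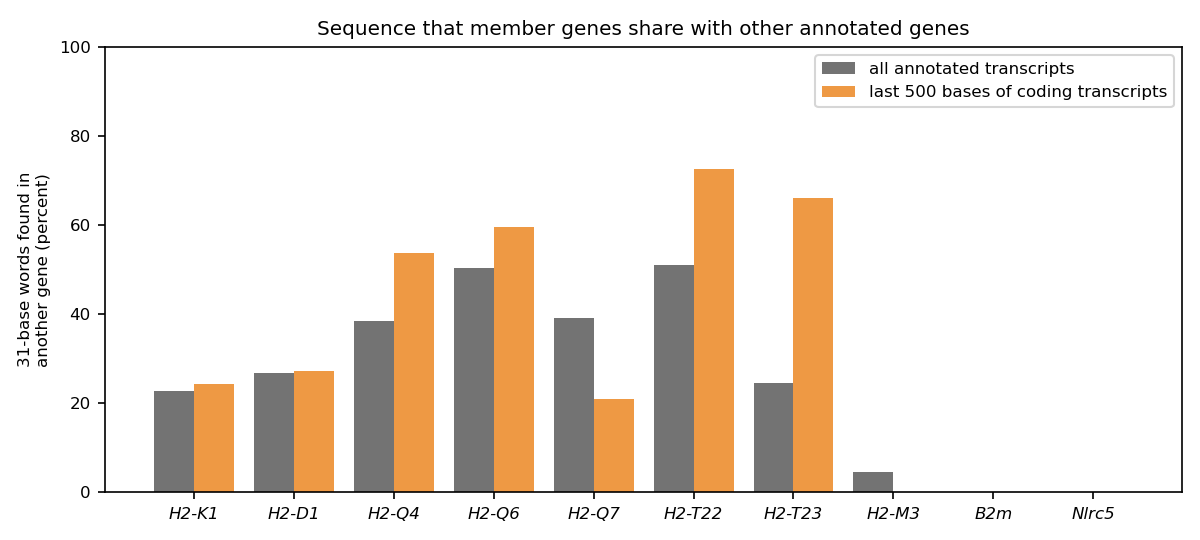
Percent of the 31-base words of each gene (x axis) that occur in another annotated gene, over all its transcripts (grey bars) and over the last 500 bases of its coding transcripts (orange bars). H2-T22 stands highest over the last 500 bases, at 72.7%, while B2m and Nlrc5 are at 0.

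Library totals ranged from 2642452 to 9788811 counts (heart), from 2318223 to 5835064 (bone), from 3439649 to 6397377 (muscle) and from 3013740 to 5392902 (skin). Levels are given in CPM (a library's counts divided by its total, times 1000000). The sorted cells carried their defining markers in every library (Lyz2 from 5668 to 26680 CPM, Csf1r from 117 to 1266), but not equally in both arms. In bone at day 7 Csf1r was 151 to 262 CPM in depleted and 343 to 491 CPM in control libraries. At day 10 it was 117 to 183 CPM and 311 to 395 CPM. Lyz2 was also lower in depleted bone without overlap, at 6683 to 9944 CPM against 10710 to 19080 CPM at day 7 and 5668 to 7919 CPM against 9803 to 11470 CPM at day 10. In heart at day 7 Lyz2 was 16230 to 20280 CPM in depleted and 21940 to 26680 CPM in control libraries. Depleted muscle was lower in Lyz2 without overlap on both days, and the arms overlapped in heart at day 4 and in skin. Csf1r was also lower without overlap in heart at day 7, and overlapped in the other comparisons outside bone. Adgre1, another macrophage marker, was lower without overlap in skin on both days and in bone and muscle at day 7. Its arms overlapped elsewhere. The 3 heart control libraries of day 4 stood apart in ribosomal protein genes: Rps12 was 2.65 to 3.68 CPM in depleted and 1340 to 1687 CPM in control libraries, and the summed ribosomal protein genes were 23270 to 26160 CPM in depleted and 63120 to 68990 CPM in control libraries. The heart libraries of day 7, of both arms, lay near the depleted libraries of day 4 (ribosomal protein genes 21940 to 26180 CPM). Because a whole arm stands apart, this difference and depletion cannot be told apart in heart at day 4. The ribosomal RNA gene Rn18s-rs5 was 49310 to 103600 CPM in depleted and 14230 to 77600 CPM in control libraries in bone at day 7, 66980 to 94970 CPM in depleted and 17100 to 26110 CPM in control libraries in bone at day 10 and 15340 to 43880 CPM in depleted and 6330 to 10560 CPM in control libraries in muscle at day 7. Its part in the muscle values was not tested. Mitochondrial transcripts were 21050 to 28770 CPM in depleted and 10630 to 13480 CPM in control libraries in bone at day 10. In bulk RNA, fewer cells of a type and less RNA per cell cannot be told apart.

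Some class I genes were raised in Treg-depleted cells of each of the 4 tissues, and none passed the test as lower. In bone the calls were of H2-Q7 and H2-T22 on both days and of Nlrc5 at day 7. H2-K1, H2-D1 and B2m did not pass in bone on either day. Over the 8 comparisons of depleted with control cells, 26 of 80 member values passed the threshold (adjusted p under 0.05, by the quasi-likelihood test of edgeR, Benjamini-Hochberg adjusted over all genes tested), all of them higher in depleted cells. H2-Q7 passed in 7 of the 8 comparisons, H2-T22 in 5, H2-K1 in 4, H2-Q6 in 3, Nlrc5 and B2m in 2 each, and H2-D1, H2-T23 and H2-M3 in 1 each. H2-Q4 passed in none, and its log2 changes lay between 0.55 and 1.56.

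The members' counts are read against the share of all genes called. In heart at day 4, 6 of 10 members were higher, while 4.25% of 11339 genes were called higher and 6.85% lower. At day 7 in heart 3 of 10 were higher, against 1.58% of genes higher and 1.56% lower. In bone 3 of 10 were higher at day 7 (11% of 12709 genes higher, 12.6% lower) and 2 of 10 at day 10 (8.95% higher, 8.22% lower). In muscle no member passed at day 4, where only 0.0542% of 12907 genes were called higher and 0.101% lower. There 2 of 10 members had an unadjusted p under 0.05 by edgeR, and DESeq2 and limma-voom called 0 as well. By day 7 muscle had 4 of 10 higher (4.67% of genes higher, 3.92% lower). Skin had 3 of 10 higher at day 4 (2.12% of 12616 genes higher, 1.45% lower) and 5 of 10 at day 7 (2.95% higher, 3.27% lower). The median log2 change of the 10 members ran from 0.20 in muscle at day 4 to 0.95 in heart at day 4, while the median over all tested genes stayed between -0.02 and 0.0046.

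**Figure D2:**
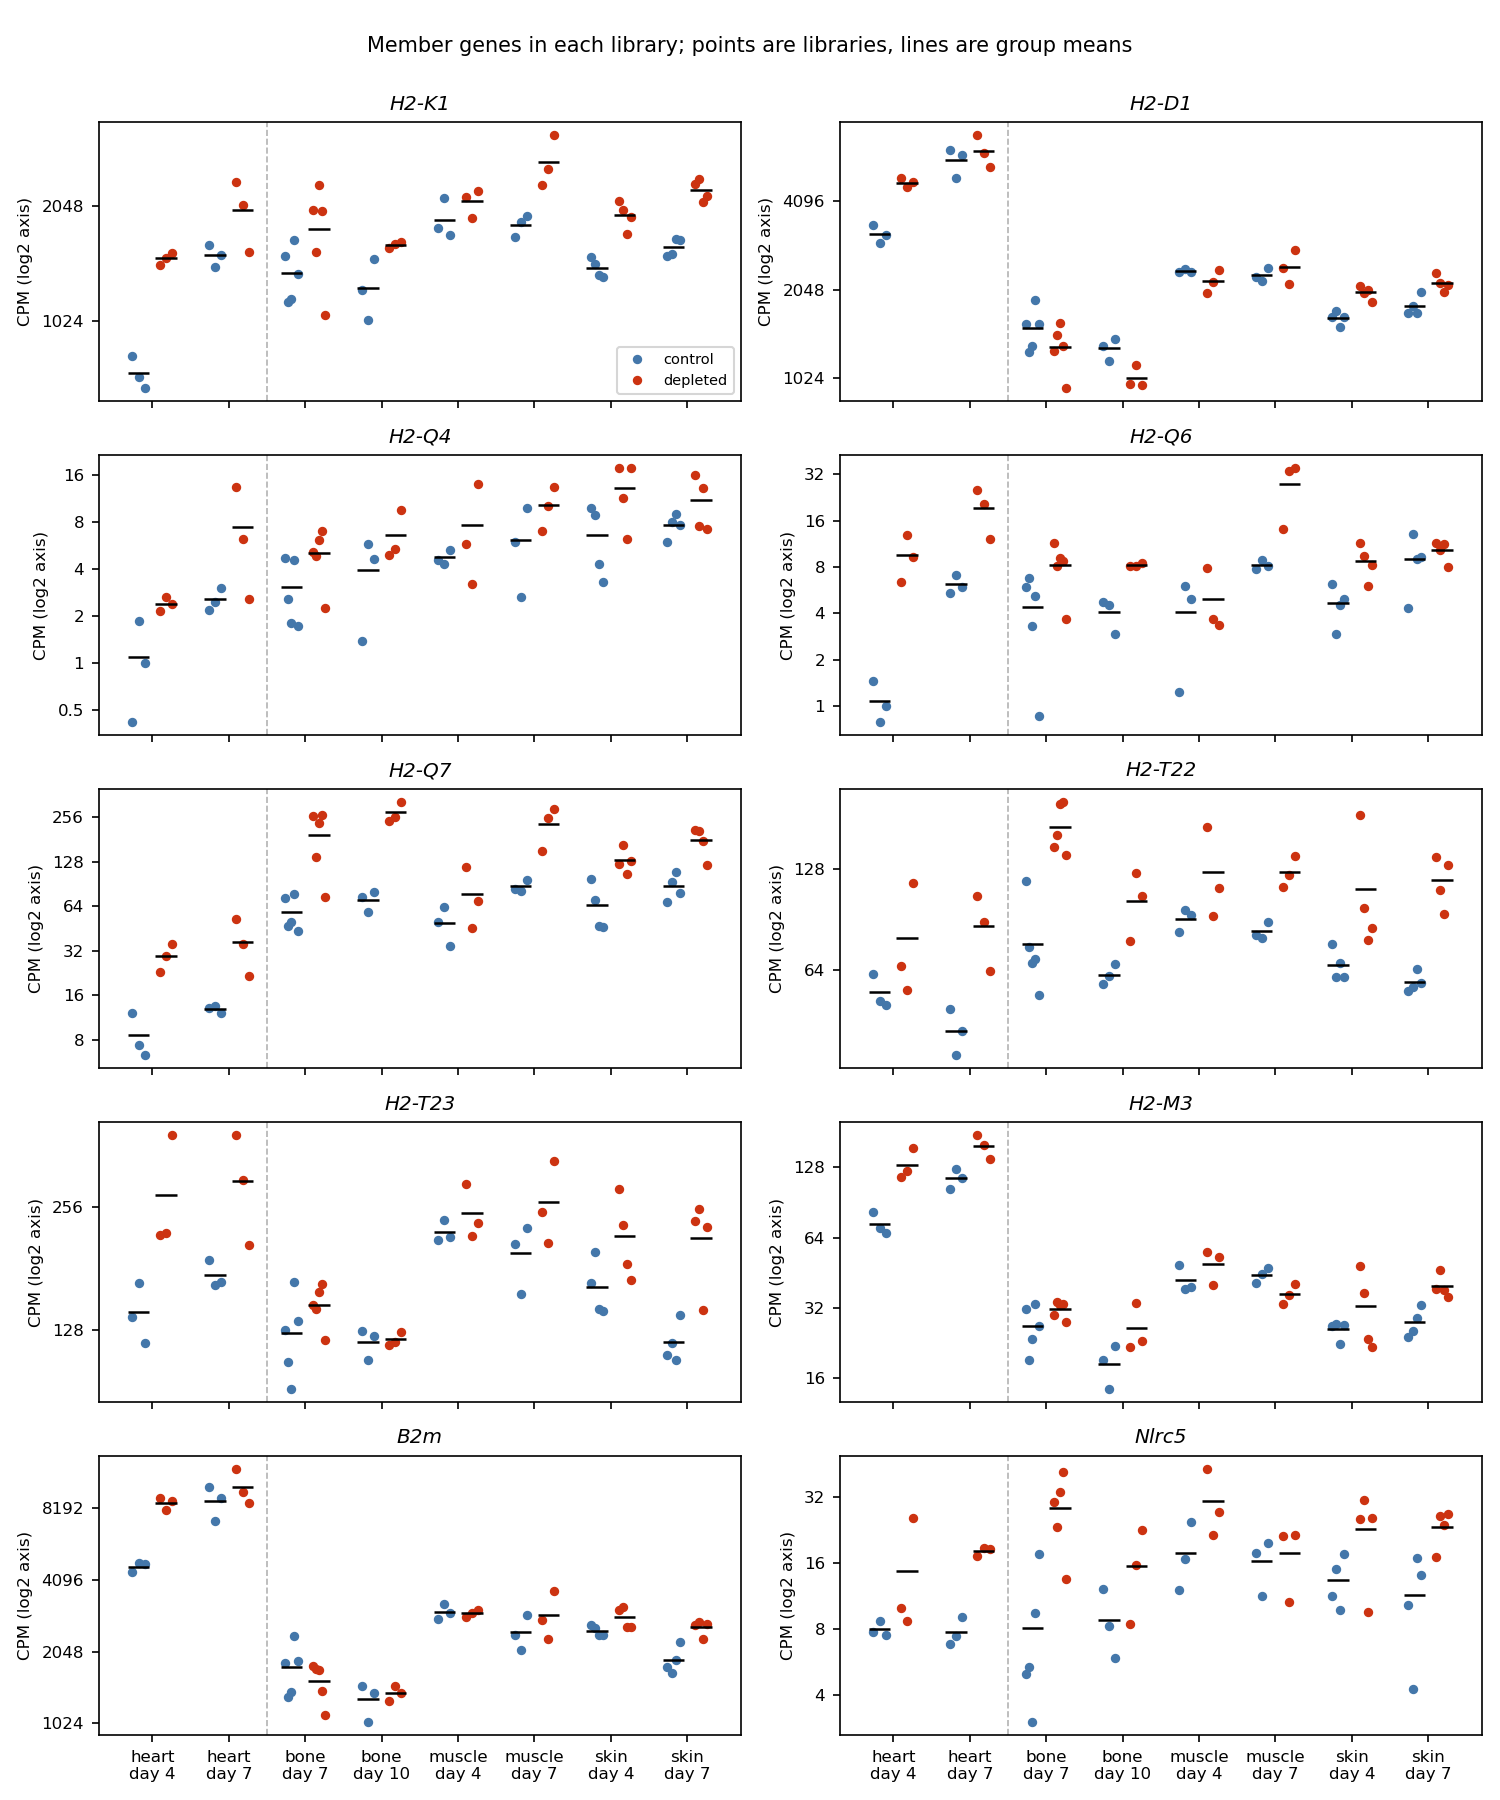
CPM of each member gene (log2 axis) in every library, by tissue and day, with controls in blue, depleted in red and group means as black lines; the dashed line parts the heart table from the other. H2-Q7 in depleted bone at day 10 lies at 243 to 326 CPM, above all 3 controls (58.5 to 80.2 CPM).

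**Figure D3:**
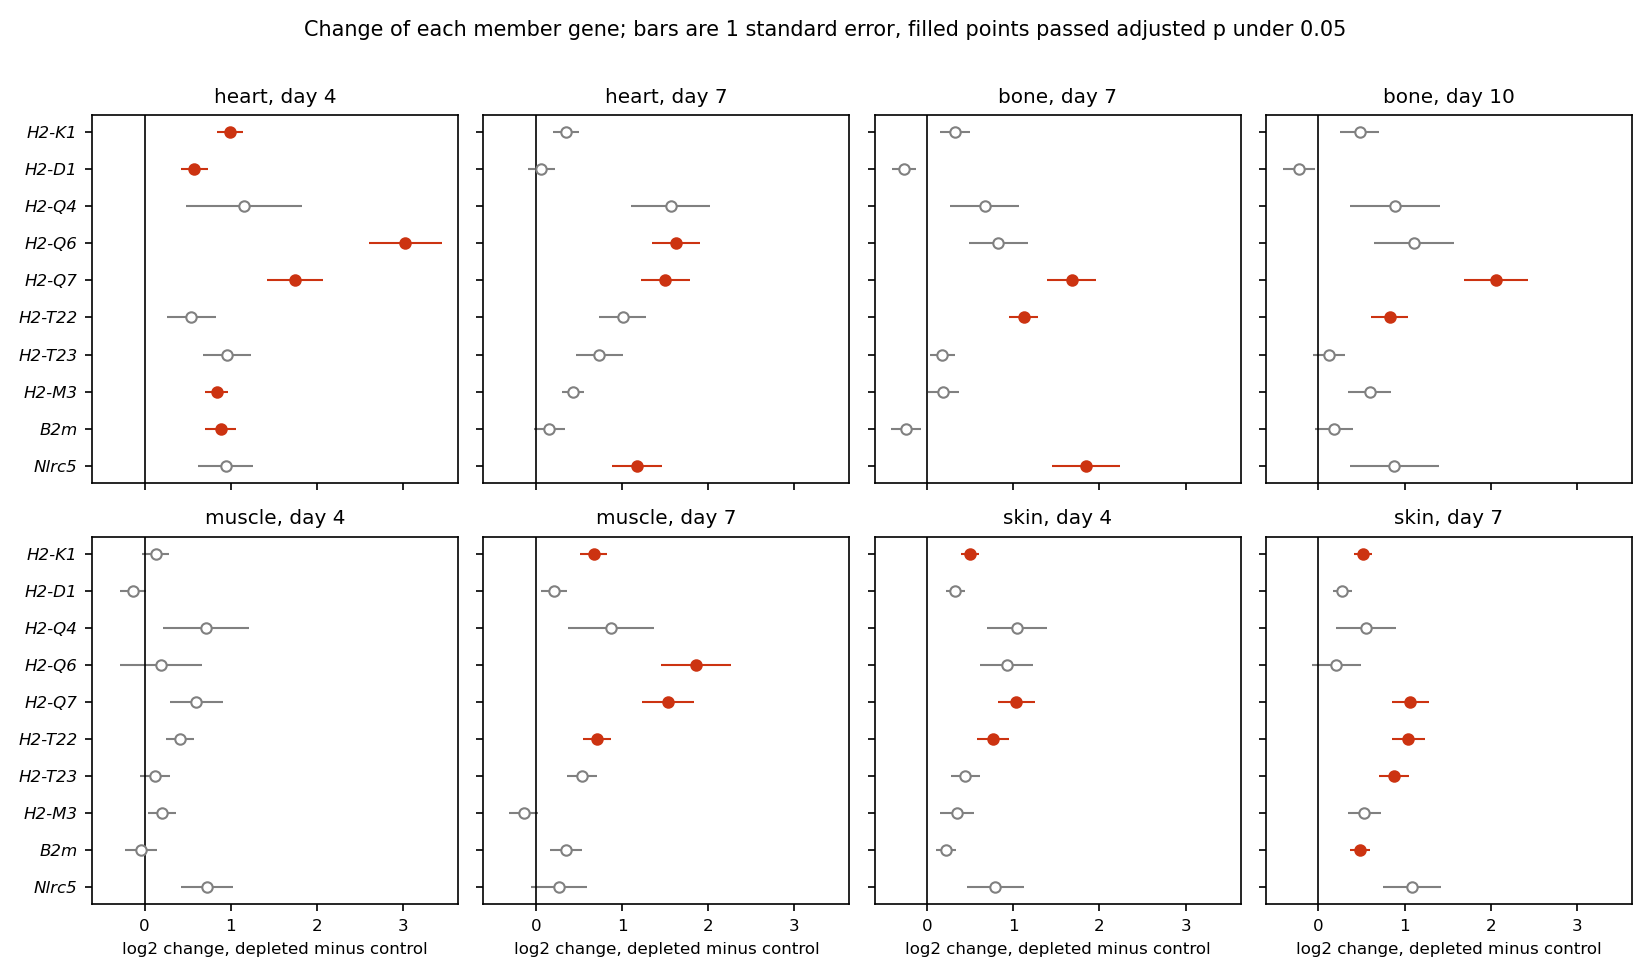
Log2 change, depleted minus control, of the 10 members (rows) in each tissue and day (panels), with bars of 1 standard error and filled points where the adjusted p was under 0.05. All 26 filled points lie to the right of 0, and the panel of muscle at day 4 has none.

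Nlrc5, the coactivator, rose in bone and heart at day 7. At day 7 the depleted bone libraries held 30.3, 23.5, 33.9, 41.8 and 13.6 CPM and the controls 4.96, 5.37, 3.00, 9.43 and 17.7 CPM (log2 change 1.84, SE 0.39, adjusted p = 0.00186). The arms overlapped by 1 library on each side: depleted replicate 5 fell below control replicate 5, and the other 4 depleted libraries were above all controls. With Rn18s-rs5 as a covariate the adjusted p was 0.0786, and over all settings the log2 change lay between 1.71 and 2.11. In heart at day 7 the depleted libraries held 17.2, 18.8 and 18.6 CPM against 6.82, 7.46 and 9.09 CPM (log2 change 1.18, SE 0.29, adjusted p = 0.0306). These arms did not overlap, yet the call was lost when any 1 of the 6 libraries was left out (adjusted p up to 0.109). At day 4 in heart, depleted library F3 stood at 25.7 CPM and the other two at 9.99 and 8.70 CPM, against 7.73, 8.69 and 7.50 CPM in controls (log2 change 0.94, SE 0.31, adjusted p = 0.0615). In the other comparisons the log2 change was 0.88 (adjusted p = 0.261) in bone at day 10, 0.73 (adjusted p = 0.515) and 0.27 (adjusted p = 0.706) in muscle at days 4 and 7, and 0.79 (adjusted p = 0.221) and 1.09 (adjusted p = 0.0555) in skin at days 4 and 7. None of these passed by edgeR. Nlrc5 did pass in skin at day 7 by DESeq2, by limma-voom, with no filter on low counts, with other genes of shared sequence left out and with a replicate block.

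H2-K1, a classical heavy chain, rose in skin on both days, in muscle at day 7 and in heart at day 4. In skin the day 4 libraries held 2120, 2004, 1733 and 1924 CPM when depleted and 1512, 1445, 1353 and 1340 CPM as controls (log2 change 0.50, SE 0.10, adjusted p = 0.00736). At day 7 they held 2346, 2418, 2110 and 2187 CPM and 1522, 1534, 1681 and 1675 CPM (log2 change 0.52, SE 0.10, adjusted p = 0.00253). On both days every depleted skin library was above every control. Muscle libraries of day 7 had H2-K1 at 2329, 2564 and 3157 CPM in depleted and 1700, 1864 and 1932 CPM in control libraries (log2 change 0.67, SE 0.16, adjusted p = 0.00962). The muscle arms did not overlap, but the call was lost without control replicate 1 or depleted replicate 3 (adjusted p up to 0.0594). Heart libraries of day 4 had H2-K1 at 1442, 1503 and 1546 CPM against 830.0, 734 and 684 CPM (log2 change 1.00, SE 0.15, adjusted p = 0.000163), beside the control libraries that stood apart in Rps12. Those controls lay below all other heart libraries in H2-K1. The log2 changes that did not pass were 0.35 (adjusted p = 0.205) in heart at day 7, 0.33 (adjusted p = 0.181) and 0.48 (adjusted p = 0.148) in bone at days 7 and 10, and 0.13 (adjusted p = 0.875) in muscle at day 4.

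H2-D1, the other classical heavy chain, passed in 1 comparison. It rose in heart at day 4, from 3416, 2963 and 3150 CPM in controls to 4916, 4581 and 4757 CPM in depleted libraries (log2 change 0.58, SE 0.16, adjusted p = 0.0203). The arms did not overlap, but the call was lost without control W3, control W4 or depleted F1 (adjusted p up to 0.091). Its log2 change was 0.06 in heart at day 7, -0.13 and 0.21 in muscle, 0.33 and 0.28 in skin, and -0.27 and -0.23 in bone at days 7 and 10. None of these passed. In bone at day 10 the depleted libraries held 978, 1134 and 968 CPM and the controls 1318, 1169 and 1386 CPM, without overlap and with an adjusted p of 0.436.

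B2m, the light chain that every class I molecule needs, rose in heart at day 4 and in skin at day 7. In heart the depleted libraries held 8982, 8064 and 8783 CPM and the controls 4421, 4800 and 4751 CPM (log2 change 0.88, SE 0.18, adjusted p = 0.0024). In skin they held 2652, 2725, 2315 and 2686 CPM and 1758, 1663, 1891 and 2252 CPM (log2 change 0.48, SE 0.12, adjusted p = 0.0128). Neither pair of arms overlapped. The skin call was lost without control replicate 2 (adjusted p = 0.0575). Elsewhere B2m did not pass: its log2 change was 0.16 in heart at day 7, -0.24 and 0.19 in bone, -0.04 and 0.35 in muscle and 0.22 in skin at day 4. Unlike the heavy chains, B2m shares no 31-base word with another gene.

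H2-Q7, a non-classical heavy chain of the Qa-2 group, was the member called most often. In bone at day 7 the depleted libraries held 260.0, 138, 233, 263 and 73.4 CPM and the controls 72.2, 46.9, 50.3, 77.7 and 43.6 CPM (log2 change 1.68, SE 0.29, adjusted p = 0.000456). Depleted replicate 5 lay within the controls' range and the other 4 above it. At day 10 they held 243, 258 and 326 CPM and 74.1, 58.5 and 80.2 CPM (log2 change 2.06, SE 0.37, adjusted p = 0.00188), with no overlap. With Rn18s-rs5 as a covariate the day 10 value no longer passed (adjusted p = 0.145), while its log2 change over all settings lay between 1.77 and 2.10. That covariate took the genes called in bone at day 10 from 1137 higher and 1045 lower to 40 higher and 71 lower.

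Muscle libraries of day 7 had H2-Q7 at 150.3, 251 and 293 CPM in depleted and 83.8, 81.5 and 95.9 CPM in control libraries (log2 change 1.54, SE 0.30, adjusted p = 0.00533). In skin at day 4 the values were 123, 165, 105 and 129.9 CPM and 98.03, 71.0, 46.9 and 46.1 CPM (log2 change 1.03, SE 0.22, adjusted p = 0.00855). At day 7 in skin they were 211, 208, 176 and 122 CPM and 68.1, 93.6, 108 and 79.1 CPM (log2 change 1.07, SE 0.21, adjusted p = 0.00314). All 3 of these comparisons separated the arms completely. In heart H2-Q7 had low counts. The depleted libraries of day 4 held 22.8, 29.5 and 35.7 CPM against 12.1, 7.37 and 6.25 CPM (log2 change 1.75, SE 0.33, adjusted p = 0.00259). At day 7 they held 52.6, 35.7 and 21.7 CPM against 13.1, 13.5 and 12.1 CPM (log2 change 1.504, SE 0.29, adjusted p = 0.0122). The heart arms did not overlap either, and the day 7 call was lost without any 1 control library (adjusted p up to 0.0656). In muscle at day 4 the log2 change of H2-Q7 was 0.60 (adjusted p = 0.644) and the arms overlapped.

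H2-Q6, close in sequence to H2-Q7, rose in heart on both days and in muscle at day 7. In heart at day 4 it was at 6.42, 12.9 and 9.27 CPM in depleted and 1.46, 0.79 and 1 CPM in control libraries (log2 change 3.02, SE 0.42, adjusted p = 5.69e-05). Those controls held only 7, 3 and 4 counts of H2-Q6 and are the libraries that stood apart in Rps12. Heart libraries of day 7 had it at 25.3, 20.4 and 12.1 CPM against 5.46, 7.15 and 5.95 CPM (log2 change 1.63, SE 0.28, adjusted p = 0.00361). Muscle at day 7 had it at 14.2, 33.5 and 35.1 CPM against 7.74, 8.96 and 8.14 CPM (log2 change 1.86, SE 0.40, adjusted p = 0.00689). The arms did not overlap in any of these. H2-Q4, a further H2-Q heavy chain, passed in no comparison: its log2 change was 1.56 (adjusted p = 0.0685) in heart at day 7, 1.04 (adjusted p = 0.106) in skin at day 4 and 0.87 (adjusted p = 0.354) in muscle at day 7. For H2-Q6 the changes that did not pass were 0.83 (adjusted p = 0.0826) and 1.11 (adjusted p = 0.105) in bone, 0.19 (adjusted p = 0.948) in muscle at day 4, and 0.92 (adjusted p = 0.103) and 0.21 (adjusted p = 0.778) in skin at days 4 and 7.

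Because reads can be divided among H2-Q copies, the H2-Q genes were also summed before the fit. The sum rose in depleted cells in all comparisons but muscle at day 4, with a log2 change of 1.44 (SE 0.30, adjusted p = 0.00813) and 1.45 (SE 0.28, adjusted p = 0.0164) in heart at days 4 and 7, 1.57 (SE 0.27, adjusted p = 0.00048) and 1.93 (SE 0.35, adjusted p = 0.00201) in bone at days 7 and 10. In muscle at day 7 it was 1.47 (SE 0.27, adjusted p = 0.00303), and in skin 0.95 (SE 0.21, adjusted p = 0.0104) and 0.91 (SE 0.20, adjusted p = 0.00777) at days 4 and 7. In muscle at day 4 it was 0.52 (SE 0.27, adjusted p = 0.659). The 7 comparisons in which the sum passed are those in which the H2-Q7 gene itself passed. H2-Q7 was far above H2-Q6 and H2-Q4 in bone, muscle and skin (276, 8.28 and 6.58 CPM in depleted bone at day 10). The sum is therefore no separate support for H2-Q7.

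H2-T22, a non-classical heavy chain known as a ligand of some gamma-delta T cells, rose in bone and skin on both days and in muscle at day 7. Its reads cannot be told from those of H2-T10 over most of the 3′ end. In bone at day 7 the depleted libraries held 149, 163, 200.1, 204 and 142 CPM and the controls 118, 75.1, 67.4, 69.2 and 53.9 CPM (log2 change 1.12, SE 0.16, adjusted p = 3.99e-05). At day 10 in bone they held 78.4, 125 and 106 CPM and 58.3, 61.4 and 66.7 CPM (log2 change 0.83, SE 0.21, adjusted p = 0.0117). The arms did not overlap on either day, but the day 10 call was lost without depleted replicate 2 (adjusted p = 0.0627) and with Rn18s-rs5 as a covariate (adjusted p = 0.0972). In skin at day 7 the depleted libraries held 139.6, 111, 94.0 and 132 CPM and the controls 55.5, 56.9, 64.5 and 58.6 CPM (log2 change 1.04, SE 0.19, adjusted p = 0.000913). All 4 depleted skin libraries were above all 4 controls. In skin at day 4 they held 186, 98.5, 78.8 and 85.4 CPM against 76.6, 61.2, 67.5 and 61.0 CPM (log2 change 0.76, SE 0.19, adjusted p = 0.0218), with no overlap. Leaving out control replicate 2, 3 or 4 or depleted replicate 1 ended that call (adjusted p up to 0.0904). The muscle libraries of day 7 held 114, 123 and 140.2 CPM against 81.8, 80.0 and 89.2 CPM (log2 change 0.71, SE 0.16, adjusted p = 0.00976), again with no overlap. Without depleted replicate 3 the adjusted p was 0.0501. In heart the log2 change was 0.54 (adjusted p = 0.262) at day 4 and 1.01 (adjusted p = 0.0722) at day 7, and in muscle at day 4 it was 0.41 (adjusted p = 0.4656). In bone at day 10 and skin at day 4, where H2-T22 passed, the sum over the H2-T genes did not. The log2 change of that sum was 0.41 (adjusted p = 0.0875 by edgeR) and 0.51 (adjusted p = 0.0761).

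H2-T23 encodes Qa-1, the ligand of the NKG2A receptor of NK and CD8 T cells. It rose in skin at day 7, where the depleted libraries held 237, 253, 143 and 229 CPM and the controls 111, 119, 108 and 139 CPM (log2 change 0.88, SE 0.17, adjusted p = 0.00194). The lowest depleted library, replicate 3, was just above the highest control. Near the threshold without passing, the log2 change was 0.96 (adjusted p = 0.0514) in heart at day 4 and 0.53 (adjusted p = 0.0644) in muscle at day 7. The heart value passed by DESeq2, by limma-voom, with RLE normalization, with the compared groups alone and with no filter, and the muscle value by DESeq2, with no filter and with a replicate block. In bone the log2 change was 0.18 at day 7 and 0.13 at day 10, in heart at day 7 0.74, in muscle at day 4 0.12 and in skin at day 4 0.44. Summed over the H2-T genes, the log2 change was 0.63 (SE 0.13, adjusted p = 0.000941) in bone at day 7, 0.60 (SE 0.16, adjusted p = 0.0231) in muscle at day 7 and 0.91 (SE 0.16, adjusted p = 0.000712) in skin at day 7. The sum did not pass in the other comparisons, where its adjusted p ran from 0.0757 in heart at day 4 to 0.775 in muscle at day 4.

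H2-M3, which presents formylated peptides of bacteria and mitochondria, passed in heart at day 4 only among the 8 comparisons. There the depleted libraries held 117, 123 and 155 CPM and the controls 82.5, 70.6 and 67.0 CPM (log2 change 0.84, SE 0.14, adjusted p = 0.000281). All 3 depleted libraries were above all 3 controls. At day 7 in heart the change was 0.43 (adjusted p = 0.0734). In bone it was 0.19 and 0.60, in muscle 0.21 and -0.14, and in skin 0.35 and 0.53. Depleted muscle of day 7 held 33.4, 36.5 and 40.7 CPM and the controls 40.9, 44.6 and 47.4 CPM, the controls being higher without overlap but without passing (adjusted p = 0.704).

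Genes that make and load class I peptides rose beside the heavy chains. Of 13 listed genes of peptide loading and trimming, 10 rose in bone at day 7 (11% of all genes rose there) and 10 in skin at day 7 (2.95%), 8 in skin at day 4 (2.12%), 7 in muscle at day 7 (4.67%), 5 in heart at day 4 (4.25%), 4 in bone at day 10 (8.95%) and 1 in heart at day 7 (1.58%). None passed in muscle at day 4 (0.0542%), where the median log2 change of the list was 0.53. Tap1, a subunit of the peptide transporter, rose in bone at day 7 (log2 change 1.44, SE 0.14, adjusted p = 5.32e-07) and in skin at day 7 (log2 change 1.41, SE 0.16, adjusted p = 4.46e-06). Psmb9, a catalytic subunit of the immunoproteasome, rose in bone at day 7 (log2 change 1.74, SE 0.14, adjusted p = 6.41e-08) and in bone at day 10 (log2 change 1.49, SE 0.18, adjusted p = 4.08e-05). Psmb8, another such subunit, was the member of the list that rose in heart at day 7 (log2 change 0.80, SE 0.20, adjusted p = 0.0416). Canx, a chaperone of newly made heavy chains, fell in heart at day 4 (log2 change -0.46, SE 0.11, adjusted p = 0.011), and Tapbp, the bridge between TAP and class I, fell in bone at day 10 (log2 change -0.69, SE 0.18, adjusted p = 0.014).

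Transcripts of 7 listed genes of the interferon-gamma pathway to Nlrc5 were compared, and whether interferon-gamma acted was not tested. Irf1, an interferon-induced transcription factor, rose in heart at day 4 (log2 change 1.83, SE 0.38, adjusted p = 0.0173), in bone at day 7 (log2 change 1.42, SE 0.23, adjusted p = 0.000123) and in skin at day 4 (log2 change 1.65, SE 0.17, adjusted p = 3.59e-06). Socs1, a feedback inhibitor, rose in muscle at day 7 (log2 change 1.69, SE 0.36, adjusted p = 0.00726) and in skin at day 7 (log2 change 1.16, SE 0.18, adjusted p = 0.000211). Neither receptor chain rose in any comparison: Ifngr1 fell in bone at day 7 (log2 change -0.48, SE 0.11, adjusted p = 0.00363) and Ifngr2 fell in heart at day 4 (log2 change -0.40, SE 0.12, adjusted p = 0.0379). In counts, 2 of 7 genes rose in heart at day 4 (4.25% of all genes), 0 of 7 in heart at day 7 (1.58%), 3 of 7 in bone at day 7 (11%) and 1 of 7 in bone at day 10 (8.95%). In muscle 0 of 7 rose at day 4 (0.0542%) and 3 of 7 at day 7 (4.67%), and in skin 3 of 7 at day 4 (2.12%) and 3 of 7 at day 7 (2.95%). Nlrc5 itself passed in heart at day 7, where none of these genes did by edgeR. Of the subunits that bind the SXY module, Nfyb rose in bone at day 7 (log2 change 0.61, SE 0.18, adjusted p = 0.018) and day 10 (log2 change 0.91, SE 0.25, adjusted p = 0.0146), and no other of the 7 or 8 tested passed in any comparison. The list of SXY subunits had medians between -0.13 and 0.09.

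Class II genes, which show peptides to CD4 T cells, fell in bone and were not called lower in heart. In bone at day 7, 6 of 10 listed class II genes fell (12.6% of all genes fell there) while H2-Q7, H2-T22 and Nlrc5 rose (11% of all genes rose). Among those that fell were H2-Aa (log2 change -1.33, SE 0.23, adjusted p = 0.00046), H2-Eb1 (log2 change -1.37, SE 0.25, adjusted p = 0.000594) and H2-Ab1 (log2 change -1.29, SE 0.24, adjusted p = 0.000656), the chains of the class II molecules. At day 10 in bone 3 of 10 fell (8.22% of all genes), including Ciita, the class II coactivator and relative of Nlrc5 (log2 change -1.24, SE 0.39, adjusted p = 0.0345). Dendritic cells are rich in class II, and their markers summed to 11.3 to 24.0 CPM in depleted and 49.9 to 76.2 CPM in control libraries in bone at day 7 and to 24.9 to 41.5 CPM in depleted and 108 to 171 CPM in control libraries at day 10. Their part in the class II changes was not tested. In heart the median log2 change of the list was 0.71 at day 4, with none called, and 0.78 at day 7, where 1 gene, H2-DMb2, rose (log2 change 1.06, SE 0.27, adjusted p = 0.0364). Of all genes, 1.58% rose in heart at day 7. Skin had 1 higher (H2-DMa) and 1 lower (H2-Oa) at day 4 (2.12% of all genes higher, 1.45% lower). By day 7 in skin, 3 rose and 1 fell (2.95% of all genes higher, 3.27% lower). H2-DMa, a class II peptide editor, rose (log2 change 1.07, SE 0.15, adjusted p = 5.44e-05) and H2-Oa, a chain of the H2-DM inhibitor, fell (log2 change -1.51, SE 0.38, adjusted p = 0.0174). In muscle none of 10 passed on either day. Among other class I genes of the region, H2-M2 rose in skin at day 7 (log2 change 2.13, SE 0.28, adjusted p = 3.54e-05) and in muscle at day 7 (log2 change 1.88, SE 0.25, adjusted p = 0.000107), and H2-T10, the near copy of H2-T22, rose in bone at day 7 (log2 change 1.21, SE 0.25, adjusted p = 0.00127). Of 19 such genes 5 to 8 entries passed the filter. The lower calls, 1 each in bone at day 7 and day 10 and in skin at day 7, were of H2-K2, a name that 2 entries of the table share and for which no value is given. Of 7 tested class I-like genes outside the region, 5 fell and 1 rose in bone at day 7 (12.6% of all genes fell, 11% rose). Those that fell were led by Fcgrt, the neonatal Fc receptor (log2 change -1.63, SE 0.17, adjusted p = 1.13e-06), and the lipid-presenting Cd1d1 rose (log2 change 1.91, SE 0.35, adjusted p = 0.000456).

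**Figure D4:**
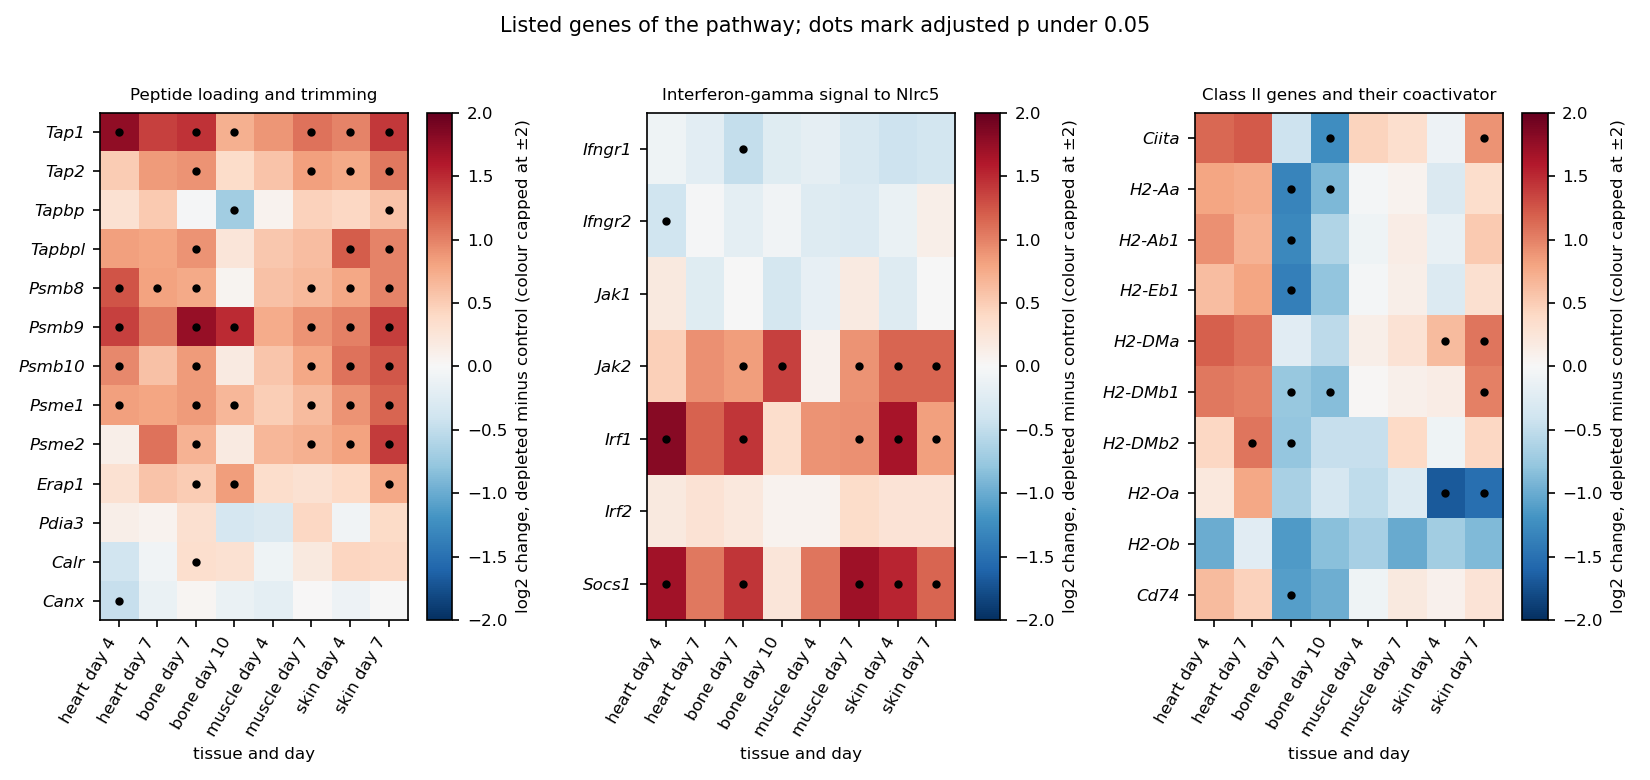
Log2 change, depleted minus control, of listed genes (rows) in each tissue and day (columns) as colour, capped at 2 in either direction, with dots where the adjusted p was under 0.05. The loading genes are red in most columns, with 10 dots in bone at day 7, where class II genes are blue with 6 dots.

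Markers of other cells moved with some of these changes, and their part in the class I changes was not tested. A percentage after a count of markers is the share of all genes called in that direction. In bone at day 7, 9 of 10 tested T and NK cell markers were higher in depleted cells (11%), and their sum was 183 to 376 CPM in depleted and 76.5 to 113 CPM in control libraries. Cd3e, which defines T cells, reached at most 4.67 CPM there, Cd8a at most 16.5 CPM and Ifng at most 1.83 CPM. In heart at day 4 the sum was 17.8 to 61.4 CPM in depleted and 2.75 to 7.90 CPM in control libraries. Skin at day 7 had 21.7 to 48.1 CPM in depleted and 20.5 to 37.3 CPM in control libraries, with 1 of 7 tested markers higher (2.95%). That marker, Nkg7, was 2.25 to 10.4 CPM in depleted and 1.27 to 1.80 CPM in control libraries, with no overlap, and Ifng was 0 in all 8. Skin at day 4 had a sum of 8.58 to 32.3 CPM in depleted and 8.24 to 12.3 CPM in control libraries, and 2 of 7 markers were higher (2.12%). Heart at day 7 had 19.7 to 26.0 CPM in depleted and 14.2 to 19.2 CPM in control libraries, with 2 of 6 higher (1.58%). Bone at day 10 had 166 to 276 CPM in depleted and 83.2 to 202 CPM in control libraries, with 3 of 10 higher (8.95%). Muscle at day 7 had 48.6 to 55.8 CPM in depleted and 40.7 to 60.1 CPM in control libraries, with none higher (4.67%) and 1 lower, Cd4 (3.92%). Neutrophil markers summed to 8664 to 27630 CPM in depleted and 5886 to 12230 CPM in control libraries in bone at day 7, 17860 to 29770 CPM in depleted and 5274 to 9747 CPM in control libraries in bone at day 10 and 1048 to 2679 CPM in depleted and 161 to 183 CPM in control libraries in muscle at day 7. Their sum in heart at day 7 was 420.0 to 738 CPM in depleted and 187 to 272 CPM in control libraries, and in skin at day 4 it was 542 to 672 CPM in depleted and 243 to 424 CPM in control libraries. The arms overlapped in bone at day 7 and in none of the other 4. Skin at day 7 had 275 to 1516 CPM in depleted and 704 to 1444 CPM in control libraries. Dendritic cell markers were also lower without overlap in heart at day 4 (11.7 to 23.0 CPM in depleted and 43.7 to 45.7 CPM in control libraries) and in muscle at day 7 (47.1 to 62.0 CPM in depleted and 107 to 156 CPM in control libraries). In muscle at day 4, where no member passed, they were lower without overlap too (11.95 to 18.8 CPM in depleted and 31.9 to 52.9 CPM in control libraries). Neutrophil markers there were higher without overlap (211 to 236.5 CPM in depleted and 185 to 193 CPM in control libraries). T and NK cell markers there summed to 8.97 to 19.9 CPM in depleted and 5.82 to 12.45 CPM in control libraries, with none of 7 higher. In heart at day 4, 3 of 10 neutrophil markers were lower in depleted cells (6.85%), with Camp (log2 change -7.28, SE 0.85, adjusted p = 8.9e-06) and Ngp (log2 change -6.15, SE 0.71, adjusted p = 0.000113), granule proteins, in front. The other 7 did not pass, and the median log2 change of the list was -0.20. The neutrophil sum there overlapped between the arms (613 to 627 CPM in depleted and 546 to 729 CPM in control libraries). In skin at day 7 the keratin genes Krt14 (log2 change -2.72, SE 0.64, adjusted p = 0.0165) and Krt5 (log2 change -3.25, SE 0.83, adjusted p = 0.0184) fell, 2 of 3 tested keratinocyte markers (3.27%). Of 9 monocyte and macrophage markers 5 fell (12.6%) and 1 rose (11%) in bone at day 7, where Adgre1 was 40.4 to 65.8 CPM in depleted and 112 to 182 CPM in control libraries. At day 10 in bone 4 fell (8.22%) and 2 rose (8.95%). The sum of the 9 was lower in depleted cells without overlap in bone at day 10, in heart at day 7 (23420 to 26610 CPM against 29880 to 33910 CPM) and in muscle on both days. Its arms overlapped in bone at day 7, in heart at day 4 and in skin on both days.

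Between days 11 of 80 member values passed by edgeR, 7 of them in heart (12 passed by DESeq2 and 11 by limma-voom). In heart control cells 5 of 10 members rose from day 4 to day 7 (31.8% of genes were called in either direction): H2-K1 (log2 change 0.96, SE 0.15, adjusted p = 9.64e-05), B2m (log2 change 0.84, SE 0.18, adjusted p = 0.00113), H2-Q6 (log2 change 2.39, SE 0.42, adjusted p = 0.000271), H2-D1 (log2 change 0.76, SE 0.16, adjusted p = 0.000959) and H2-M3 (log2 change 0.57, SE 0.13, adjusted p = 0.00298). The day 4 heart controls are the libraries that stood apart in Rps12, so the day and that difference cannot be told apart. In depleted heart cells H2-Q6 (log2 change 0.99, SE 0.28, adjusted p = 0.014) and H2-Q4 (log2 change 1.61, SE 0.50, adjusted p = 0.0236) rose (27.3% of genes called). Without FDG1 or F1 neither passed, nor H2-Q4 without F3 (adjusted p up to 0.115 and 0.281), and limma-voom did not call H2-Q4 (adjusted p = 0.0848). In depleted muscle H2-Q6 (log2 change 2.59, SE 0.42, adjusted p = 0.000289) and H2-Q7 (log2 change 1.70, SE 0.30, adjusted p = 0.00109) rose (19.4% called), and in control muscle no member passed (7.24% called, 1 of 10 members at an unadjusted p under 0.05). From day 7 to day 10 H2-T22 fell in depleted bone (log2 change -0.68, SE 0.19, adjusted p = 0.0237; 12.2% called), a call lost without day 10 replicate 1 or 3 or day 7 replicate 4 (adjusted p up to 0.125). In control bone no member passed (0.0393% called, 2 of 10 at an unadjusted p under 0.05). In control skin B2m fell (log2 change -0.44, SE 0.12, adjusted p = 0.0453; 2.27% called), a call lost without any 1 library other than day 7 replicate 4 (adjusted p up to 0.187) or with no filter on low counts (adjusted p = 0.11). In depleted skin no member passed (2.62% called), and none had an unadjusted p under 0.05.

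The depletion change itself was not shown to differ between days for any member. Of 40 member values, edgeR called 0, as did DESeq2 and limma-voom, and 8 had an unadjusted p under 0.05. Genes called over all were 4.09% in heart, 2.41% in muscle, 0.848% in skin and 0% in bone. The members nearest to the threshold were H2-K1 (log2 change -0.64, SE 0.21, adjusted p = 0.11) and B2m (log2 change -0.72, SE 0.25, adjusted p = 0.119) in heart, and both rest on the day 4 controls that stood apart in Rps12. In muscle H2-Q6 was nearest (log2 change 1.67, SE 0.63, adjusted p = 0.214), so that the absence of calls in muscle at day 4 and the 4 calls at day 7 are no tested difference.

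In control cells of bone, muscle and skin, read in 1 fit of 12 groups, 9 of 40 member values were called. The shares of members called against skin lay near those of all genes and say nothing particular about class I. At day 7 H2-D1 (log2 change -0.57, SE 0.14, adjusted p = 0.00249), H2-T23 (log2 change -0.63, SE 0.17, adjusted p = 0.0088) and H2-M3 (log2 change -0.69, SE 0.19, adjusted p = 0.00772) were lower in bone than in muscle, 3 of 10 members where 13.6% of 14340 genes were called. Without control muscle replicate 3 the values of H2-T23 and H2-M3 did not pass (adjusted p = 0.124 and 0.0636). Against skin, bone controls were lower in H2-Q4 (log2 change -1.33, SE 0.43, adjusted p = 0.0184) and H2-Q6 (log2 change -1.03, SE 0.35, adjusted p = 0.0263), 2 of 10 where 25.6% of genes were called. H2-Q4 was lost without bone replicate 2, and H2-Q6 without bone replicate 3 or 5 or skin replicate 2 or 4 (adjusted p up to 0.0536 and 0.146), and by limma-voom H2-Q6 did not pass (adjusted p = 0.0628). Muscle controls were above skin controls in H2-M3 on day 4 (log2 change 0.66, SE 0.19, adjusted p = 0.0182) and day 7 (log2 change 0.59, SE 0.19, adjusted p = 0.0361), in H2-D1 on day 4 (log2 change 0.49, SE 0.14, adjusted p = 0.0166) and in H2-T23 on day 7 (log2 change 0.66, SE 0.18, adjusted p = 0.0111), which made 2 of 10 on each day (12.3% and 11.9% of genes called). Of these, leaving out 1 library ended the call of H2-M3 on day 4 (muscle replicate 1 or skin replicate 3, adjusted p up to 0.109), of H2-D1 on day 4 (muscle replicate 2, 0.0617), of H2-T23 on day 7 (muscle replicate 3, 0.122) and of H2-M3 on day 7 (any 1 but skin replicate 4, up to 0.168). With no filter on low counts H2-M3 on day 7 did not pass either (adjusted p = 0.116).

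Differences in the depletion change between tissues were called for 1 of 40 member values. The change of B2m at day 7 was smaller in bone than in skin (log2 change -0.69, SE 0.22, adjusted p = 0.0346; 9.37% of genes called), where the separate fits gave -0.24 in bone and 0.48 in skin. This call was lost in 11 of 18 fits with 1 library left out (adjusted p up to 0.0956). By DESeq2 3 member values and by limma-voom 2 were called. With edgeR no member was called between bone and muscle at day 7 (8.28% called, 3 of 10 members at an unadjusted p under 0.05), the nearest being Nlrc5 (log2 change 1.61, SE 0.58, adjusted p = 0.0796). None was called between muscle and skin at day 4 (0.265% called, 1 of 10 unadjusted) or day 7 (2.78% called, 2 of 10 unadjusted).

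The levels of single members across bone, muscle and skin show how the arms and tissues order. H2-K1 was highest in depleted muscle at day 7 (2683 ± 427 CPM, SD, n = 3), then depleted skin at day 7 (2265 ± 141 CPM, n = 4) and depleted muscle at day 4 (2112 ± 175 CPM). It was lowest in control bone at day 10 (1255 ± 228 CPM). The first 4 places of 12 were all depleted cells of muscle or skin, and neighbours in the order differed by less than the larger of their SDs, except control skin at day 7 (1603 ± 87.0 CPM) and day 4 (1412 ± 81.5 CPM). H2-Q7 was highest in depleted bone at day 10 (276 ± 44.5 CPM, n = 3), and its first 5 places were depleted groups, with control muscle at day 4 last (49.4 ± 14.6 CPM). Nlrc5 was highest in depleted muscle at day 4 (30.8 ± 11.3 CPM) and depleted bone at day 7 (28.6 ± 10.7 CPM, n = 5), which did not differ beyond their SDs, and lowest in control bone at day 7 (8.09 ± 5.85 CPM). B2m was highest in control muscle at day 4 (3005 ± 222 CPM), next to depleted muscle of that day (2966 ± 114 CPM), from which it did not differ beyond its SD. Its last 4 places of 12 were the bone groups, down to control bone at day 10 (1296 ± 231 CPM).

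Over the 44 bone, muscle and skin libraries the genes outside the 10 members most like H2-K1 in log2 CPM, among 10105 genes, were Gbp8 (r = 0.79, 0.43 for deviations from group means), Fgl2 (r = 0.79, 0.63 for deviations from group means), Il18bp (r = 0.78, 0.63 for deviations from group means), Gm4951 (r = 0.76, 0.57 for deviations from group means) and AW112010 (r = 0.75, 0.54 for deviations from group means). The non-members most like Nlrc5 were Gbp7 (r = 0.84, 0.73 for deviations from group means), Gbp3 (r = 0.75, 0.45 for deviations from group means), Ifi47 (r = 0.74, 0.44 for deviations from group means), Gm4951 (r = 0.73, 0.36 for deviations from group means) and Gvin1 (r = 0.73, 0.55 for deviations from group means). Gbp and Ifi47 genes encode interferon-induced GTPases. Among the members, H2-K1 had Pearson's r = 0.78, 0.58 for deviations from group means with H2-T23, above 3 of the 5 genes just named, and r = 0.68, 0.75 for deviations from group means with H2-D1, and Nlrc5 had r = 0.61, 0.17 for deviations from group means with H2-T22 and r = 0.30, 0.35 for deviations from group means with H2-D1. The libraries share tissue, day and arm, so these are descriptions with no test.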

How the data were processed

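Sorted monocytes and macrophages were sequenced as 3′ libraries with molecular identifiers (UMIs), per the labels' protocols. The authors deposited whole-number counts per gene for heart, and estimated counts for bone, muscle and skin, of which 19.4% of non-zero values were over 0.01 from a whole number and were rounded here. Per the submitters' processing notes, STAR, Salmon, featureCounts and limma were used, with GRCm38 and GRCm39 named; the sources used here give no versions, annotation, strand setting or UMI collapsing. No deposited column of other samples was left over (0 unused). Each table was fitted on its own.

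Fits used edgeR 4.0.16 in R 4.3.3 (TMM, filterByExpr, quasi-likelihood, p-values adjusted over all genes tested), 1 fit per tissue and 1 joint fit for comparisons between bone, muscle and skin. The SE is the log2 change divided by the square root of F. Alternatives were DESeq2 1.42.0, limma-voom 3.58.1, RLE normalization, no filter, summed copies, genes sharing at least 5% of their 31-base words with another left out (the members themselves kept), an Rn18s-rs5 covariate, a replicate block and each library left out. Scripts were tested on simulated counts. All 10 members are named; from each list, genes are named from the 3 called genes with the smallest adjusted p in a comparison, and Canx, Tapbp and H2-Oa (skin at day 7) were added after their values were seen. Genes most like H2-K1 and Nlrc5 are the 5 with the highest Pearson r among non-member genes with a mean of at least 5 CPM. 1 gene of the interferon-gamma list is not reported here. Members and lists were chosen with earlier results of these data known. Replicates differed beyond sampling noise (chi-square per degree of freedom 5.47 to 28.8 over 74 pairs). Nothing ties each library to a mouse of its own, and the p-values then reflect only how these samples spread, which may be technical. Positions and shared 31-base words are from GENCODE M21 (GRCm38), promoters from RefSeq.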

Additional observations from a re-analysis of the deposited data

Results flagged for a closer look

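H2-M3 in control skin at day 4 was 22.56 CPM in replicate 3, below the other 3 libraries at 26.9 to 27.38 CPM. The gap made up 0.9 of the range of the 4 libraries. The cut-off for a flag is one that chance alone passes in about 1 in 20 such groups. This was 1 of 60 pairs of a member and a group of 4 or 5 libraries examined.

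The depletion change of B2m at day 7 differed between bone and skin by -0.69 on the log2 scale (edgeR interaction test, adjusted p = 0.0346). The call was lost in 11 of 18 fits with 1 library left out.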

How the results depend on the processing

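Of the 26 depletion calls, 18 held with each library left out in turn and 23 under all other settings; the 3 lost there were all lost with Rn18s-rs5 as a covariate. The number of members called moved by more than 1.5 times as follows. In bone at day 10 it was 1 with the H2-Q and H2-T genes summed and 0 with the covariate. In heart at day 7 it was 5 by DESeq2 and 5 with no filter on low counts, and in skin at day 4 it was 5 with no filter. The difference of the depletion change between days gave 4 with no filter, and that between tissues gave 3 by DESeq2, 2 with RLE normalization, 2 by limma-voom, 3 with no filter and 2 with the replicate block. With 1 library left out at a time, the counts ran from 1 to 2 in bone at day 10, 3 to 5 in bone at day 7 (5 without depleted replicate 5), 1 to 7 in heart at day 7 (1 without any 1 control, 7 without FDG3), 2 to 5 in muscle at day 7 (2 without depleted replicate 3), 0 to 2 for the difference between days (2 without FDG1), 5 to 12 between control tissues (5 without muscle day 7 replicate 3) and 0 to 3 for the difference between tissues. Direction reversed for some values that did not pass when 1 library was left out: B2m in heart at day 7 (-0.037 to 0.298) and muscle at day 4 (-0.117 to 0.0517), H2-D1 in heart at day 7 (-0.0874 to 0.172), H2-Q4 in muscle at day 4 (-0.17 to 1.06), H2-Q6 in muscle at day 4 (-0.22 to 0.55) and in skin at day 7 (-0.0051 to 0.45). Elsewhere the cause of a change was not tested. Whether replicate numbers pair the samples is not known. The correlation of deviations was -0.16 to 0.24 over 22 same-number pairs (6 over 0.1), and -0.197 to 0.202 over pairs of other numbers. In bone at day 10 the same-number pairs (0.126, 0.0645 and 0.0539) were above all other pairs (-0.0886 to 0.0171). In skin at day 4 the pair of replicates 1 had the lowest same-number value (-0.16). With the replicate block, 2 members passed in bone at day 10, 4 in bone at day 7, 0 and 5 in muscle at days 4 and 7, 3 and 6 in skin at days 4 and 7. Heart libraries carry no shared numbers, and comparisons of days or control tissues could not be fitted with the block. The settings chosen after seeing the data were these: leaving out ribosomal protein genes in heart gave 6 and 3 members at days 4 and 7, and leaving out depleted bone replicates 3 and 5 of day 7 gave 3 there.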
